A study of Saccharomyces cerevisiae with 24 samples.

Results

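The genes described here are 10 regulators of carbon source use in the budding yeast Saccharomyces cerevisiae. They are the transcription activators CAT8, SIP4, ADR1 and HAP4, the protein kinase SNF1, and the transcription repressors MIG1, MIG2, MIG3, NRG1 and NRG2. They were taken by gene symbol from the annotation of the array, where each symbol had 1 probe set, and they are 10 of the 5656 genes measured. All 10 entered the tests, since no filter on low values was used.

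Yeast ferments glucose and related sugars in preference to other carbon sources, and keeps the genes for ethanol, lactate, acetate and glycerol use repressed while such a sugar is at hand. The kinase Snf1 works when glucose is scarce: it acts on the DNA-binding repressor Mig1, which then leaves the nucleus, and it is needed for the activators Cat8, Sip4 and Adr1. Cat8 and Sip4 bind promoters of gluconeogenesis and glyoxylate cycle genes, Adr1 those of ethanol, glycerol and peroxisomal fatty acid genes, and Hap4 is the regulated subunit of the Hap2/3/4/5 complex at genes of respiration. Mig1, Mig2, Mig3, Nrg1 and Nrg2 are zinc finger repressors, and Mig1 and Nrg1 work with the corepressor Cyc8-Tup1. Galactose is a sugar that yeast can ferment once the Gal4 activator has switched on its pathway.

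Messenger RNA was read on 24 Affymetrix YG_S98 arrays in 8 groups of 3 biological replicates. YSS89 is a MATa strain, labelled UASIFH1::HIS3-UASGAL1, in which the tagged allele UASGAL1-IFH1-13myc-TRP1 stands under the upstream activating sequence of GAL1, and it was sampled at 0, 20, 30, 40 and 60 after galactose. YSS37 is the MATa strain labelled wild-type, which carries IFH1-13myc-TRP1 under the promoter of the gene itself, and it was sampled at 0, 30 and 60. Ifh1 is a coactivator of ribosomal protein genes. Both strains thus carry the tagged IFH1, each strain is a single line, and galactose drives IFH1 in YSS89 at the same time as it changes the carbon source in both strains. All cultures were in log phase at 30°C in YPLG, an abbreviation the labels leave unexplained, before galactose was brought to 2%. The labels give no unit of time, and minutes are assumed. They do not say whether the times of 1 strain came from the same cultures, and a time course kept without galactose is not among the groups.

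The signal of a probe set is the intensity the authors deposited, on a linear scale. Differences are on the log2(value + pseudocount) scale after quantile normalization, with a pseudocount of 1.4, and so understate changes of dim genes; a value after ± is the standard error of the fit. A gene is said to have risen, fallen or differed only where the adjusted p by limma with the Benjamini-Hochberg method over all 5656 genes was under 0.05. Changes of 1 strain from time 0 share its 3 arrays at time 0, and the differences between the responses share them too.

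IFH1 read 21.7 to 34.6 at time 0 in YSS89 and 557 to 1436 at its later times, against 15.9 to 41.6 over all YSS37 arrays. Signals summed over 7 a-cell genes were 719 to 1412 in YSS89 and 706 to 984 in YSS37, and over 4 alpha-cell genes 32.0 to 55.8 and 30.9 to 47.6, for strains that are both labelled MATa. The instrument files show 4 hybridization rounds: the first held YSS37 alone, the second 1 YSS37 array at 60 min and 6 YSS89 arrays, the third only later YSS89 arrays, and the fourth replicates 2 and 3 of YSS89 at time 0. On those last 2 arrays the 25S rRNA control probe sets averaged 313 and 90.9, against 560 to 1056 on the other 22. The ratio of the 3' to the 5' ACT1 control was 1.20 to 1.58, with the highest group mean, 1.55 ± 0.033 (SD, n = 3), in YSS89 at 20 min. That of the YER148W control was 1.23 on replicate 3 of YSS89 at time 0, an array that enters every change of YSS89 from time 0, and 2.14 to 3.73 on the other 23. All YSS37 arrays bear 1 recorded chip lot that no YSS89 array bears, so recorded lot and strain cannot be told apart in direct comparisons of the strains. That lot number differs by a single digit from one recorded for YSS89 arrays, and whether this is a recording error is not known. Without the fourth round YSS89 has 1 array at time 0, and with the round as a block its level at time 0 rests on that array too, since the fourth round holds no other group; the spread then comes from the other groups, and the lone array is assumed to vary as they do. The second round has 1 array in each of its groups but YSS89 at 20 min, which has 2, so its values are given without a test. Direct differences of the strains with the round as a block also rest on 1 array. Only replicate 3 of YSS37 at 60 min shares a round with YSS89. The part of round, lot and RNA quality in the results was not tested beyond the values given with them.

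The largest changes among the 10 genes by 60 min after galactose were falls of activators. CAT8, SIP4 and ADR1 fell in both strains, and HAP4 was called lower in YSS89 only. In YSS89 by 60 min 6 of the 10 had fallen, CAT8, SIP4, ADR1, HAP4, MIG1 and NRG1, where 19.8% of all genes fell. In YSS37 by 60 min 3 of the 10 had fallen, CAT8, SIP4 and ADR1, where 20.5% of all genes fell. No member rose in either strain at 60 min, where 23.9% of all genes rose in YSS89 and 21.1% in YSS37. The median of the 10 was -0.86 in YSS89 and -0.27 in YSS37 at that time, beside medians over all genes of 0.08 and 0.01. Within the second round alone, between its single YSS89 arrays at 60 min and at time 0, the differences were -2.85 for CAT8, -2.39 for SIP4, -1.38 for ADR1, -1.43 for HAP4 and -0.87 for MIG1.

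Along the way, YSS89 had 2 of the 10 lower at 20 min, MIG1 and ADR1, beside 10.4% of all genes. At 30 min 6 had fallen there, CAT8, SIP4, ADR1, HAP4, MIG1 and SNF1, beside 23.6% of all genes. At 40 min the first 5 of these were again lower, beside 21.5% of all genes, and 1 member, NRG2, was higher, beside 23.9%. In YSS37 at 30 min 3 members had fallen, CAT8, SIP4 and SNF1, beside 12.4% of all genes. The plot of single arrays shows these courses.

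**Figure D1:**
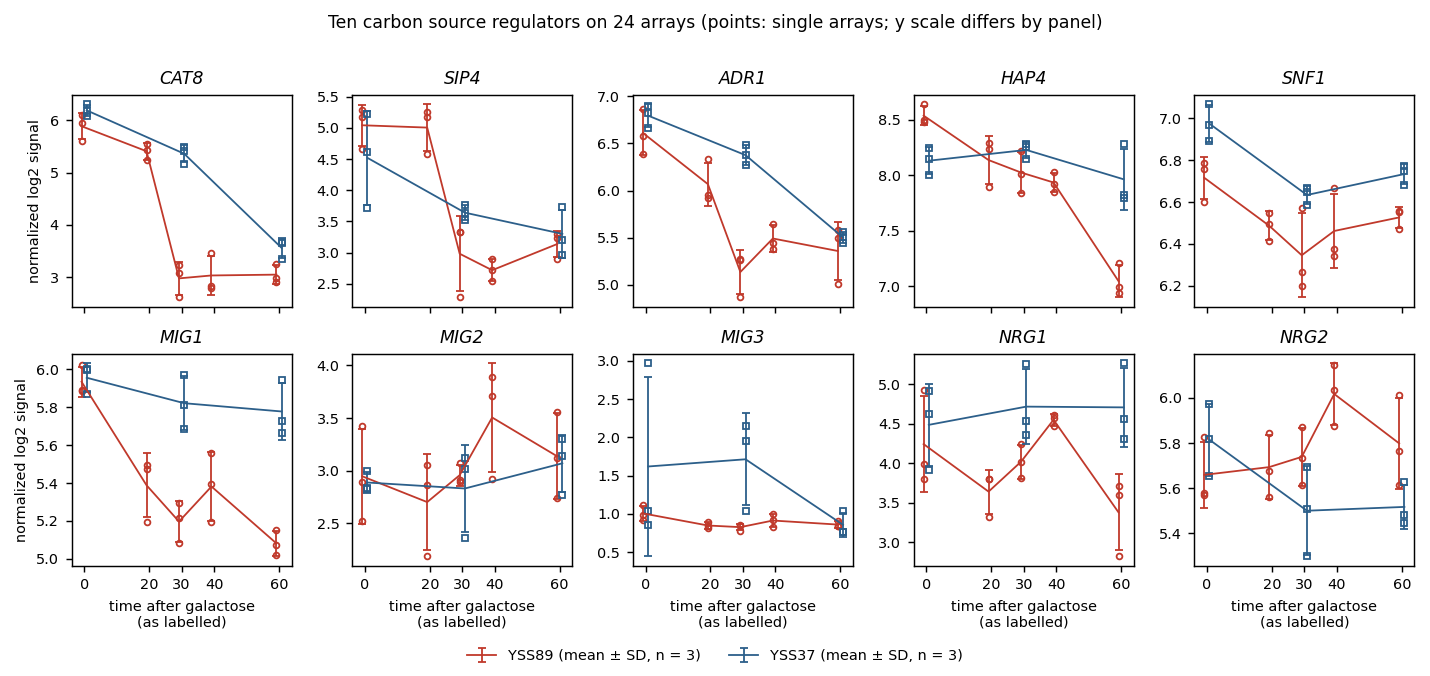
Normalized log2 signal of each of the 10 genes against the labelled time after galactose (minutes assumed), YSS89 in red circles and YSS37 in blue squares; small open symbols are single arrays and lines with bars are means ± SD of 3 arrays. CAT8 drops between 20 and 30 min in YSS89 and between 30 and 60 min in YSS37, HAP4 and MIG1 end lower in YSS89 than in YSS37, and MIG2 and MIG3 have low values at every time in both strains (the y scale differs by panel).

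CAT8 encodes the zinc cluster activator of gluconeogenic genes. In YSS89 its signal was 72.5, 52.2 and 69.5 at time 0 and 36.6, 41.0 and 46.0 at 20 min. It was 8.6, 5.1 and 7.7 at 30 min, 9.8, 6.0 and 5.1 at 40 min, and 8.6, 6.3 and 6.2 at 60 min. The 20 min arrays of YSS89 lie below its time 0 arrays, and all 9 later arrays lie far below both. In YSS37 the signal was 71.0, 65.4 and 63.9 at time 0, 41.7, 31.8 and 40.6 at 30 min, and 10.8, 11.4 and 11.1 at 60 min. The 3 YSS37 groups do not overlap, and its 30 min arrays lie in and just below the range of YSS89 at 20 min.

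In YSS89 the change of CAT8 from time 0 was -0.48 ± 0.19 at 20 min, not called by limma (adjusted p = 0.0785), and the fall was -2.91 ± 0.19 at 30 min (7.53-fold, adjusted p = 3.65e-10). It stood at -2.86 at 40 min and -2.84 at 60 min. In YSS37 CAT8 changed by -0.83 on the log2 scale at 30 min (± 0.19, adjusted p = 0.00222) and by -2.63 at 60 min (± 0.19, 6.21-fold lower, adjusted p = 3.03e-09). At 30 and 40 min 1 CAT8 array in YSS89 read 5.1, within the range of 0.1 to 5.4 of 4 control probe sets for mouse genes, which have no yeast target, so the size of the later falls depends on the pseudocount: the value at 30 min was -2.98 with a pseudocount of 1 and -2.33 with 6.2. On the scale used here, 16.8% of the log2 change at 60 min had been reached at 20 min and 103% at 30 min in YSS89, and 31.5% at 30 min in YSS37.

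The difference between these responses was large at 30 min and small at 60 min. At 30 min the response in YSS89 was lower than that in YSS37 by -2.08 ± 0.26 (adjusted p = 2.70e-05), and at 60 min the difference was -0.21, not called, with a 95% interval of -0.75 to 0.34. Compared directly, CAT8 was lower in YSS89 at 30 min by -2.39 ± 0.19 (5.23-fold, adjusted p = 1.67e-08) and at 60 min by -0.51 ± 0.19 (1.42-fold, adjusted p = 0.0456), and was not called different at time 0 (-0.30, adjusted p = 0.235). No round holds both strains at 30 min. With the round as a block in the fit the response difference at 30 min was -2.10 (adjusted p = 0.000713), and without the fourth round, from 1 YSS89 array at time 0, it was -2.29 (adjusted p = 0.000236). The call at 60 min was lost with the round as a block (-0.43, adjusted p = 0.32), and also without replicate 1 or 3 of YSS37 or replicate 2 or 3 of YSS89.

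SIP4 encodes the second zinc cluster activator of the gluconeogenic genes, and its own promoter is a known Cat8 target. Its signal in YSS89 was 40.7, 38.8 and 28.0 at time 0 and 22.6, 36.2 and 35.3 at 20 min. It was 9.3, 9.0 and 4.0 at 30 min, 6.1, 4.8 and 4.6 at 40 min, and 6.5, 8.2 and 8.0 at 60 min. The first 2 groups of YSS89 overlap, and none of the later arrays reaches them. In YSS37 it was 31.2, 19.6 and 10.7 at time 0, 10.6, 13.2 and 9.2 at 30 min, and 6.0, 14.4 and 7.8 at 60 min. These YSS37 groups overlap, with a wide spread at time 0.

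In YSS89 SIP4 was at -0.04 ± 0.32 at 20 min (adjusted p = 0.953) and fell by 2.06 at 30 min (± 0.32, 4.18-fold, adjusted p = 2.94e-05), by 2.33 at 40 min and by 1.91 at 60 min (adjusted p = 7.14e-05). Its arrays of 4.0 at 30 min and of 4.8 and 4.6 at 40 min lie in the range of the mouse controls, and with a pseudocount of 6.2 these falls were -1.56 and -1.73. In YSS37 it fell by 0.88 at 30 min (± 0.32, adjusted p = 0.0453) and by 1.22 at 60 min (± 0.32, adjusted p = 0.00416). The call at 30 min in YSS37 was lost under 10 of 17 alternatives, among them leaving out replicate 1 or 2 at time 0, or any 1 array at 30 min, and with the round as a block (adjusted p = 0.0624); without replicate 1 of time 0 the change was -0.53. The responses of the strains were not called different, at -1.18 (95% interval -2.12 to -0.25, adjusted p = 0.0747) at 30 min and -0.69 (95% interval -1.62 to 0.25, adjusted p = 0.327) at 60 min.

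ADR1 encodes the zinc finger activator of ADH2 and of peroxisomal genes. Its signal in YSS89 was 88.4, 101.3 and 124.3 at time 0 and 59.8, 59.9 and 78.9 at 20 min. It was 37.4, 28.3 and 36.5 at 30 min, 50.2, 41.2 and 44.8 at 40 min, and 31.6, 45.9 and 49.0 at 60 min. All YSS89 arrays at 20 min lie below those at time 0 and above those of the later times. In YSS37 the signal was 112.6, 109.9 and 102.8 at time 0, 74.6, 73.9 and 83.5 at 30 min, and 43.0, 45.5 and 39.8 at 60 min. The 3 YSS37 groups are apart from each other, and at 60 min they lie within the YSS89 range.

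ADR1 fell in YSS89, with log2 changes of -0.54 at 20 min (± 0.16, adjusted p = 0.0234), -1.47 at 30 min (± 0.16, 2.78-fold lower, adjusted p = 3.86e-07), -1.12 at 40 min and -1.25 at 60 min (adjusted p = 3.39e-06). In YSS37 the change at 30 min was -0.42 ± 0.16, not called (adjusted p = 0.0589), and the fall at 60 min was -1.29 ± 0.16 (2.45-fold, adjusted p = 2.62e-06). As for CAT8, the responses differed at 30 min (-1.06 ± 0.23, adjusted p = 0.00317) and were not called different at 60 min (0.04, 95% interval -0.43 to 0.51). Direct comparison at 30 min put ADR1 lower in YSS89 (-1.24 ± 0.16, YSS89 minus YSS37, adjusted p = 6.33e-06). The difference of responses at 30 min was -0.91 with the round as a block (adjusted p = 0.0626) and -0.83 without the fourth round (adjusted p = 0.0608), which ends its call. The call at 20 min ended with the round as a block (-0.36) and without the fourth round (-0.32, adjusted p = 0.443), and also without replicate 1 or 2 at 20 min or replicate 2 or 3 at time 0.

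The steps between sampled times place these falls. From 20 to 30 min in YSS89, a step chosen after the values were seen, 3 of the 10 fell, CAT8 (-2.43 ± 0.19, adjusted p = 1.64e-07), SIP4 (-2.03 ± 0.32, adjusted p = 0.00014) and ADR1 (-0.93 ± 0.16, adjusted p = 0.000322), beside 12.4% of all genes. Within the second round alone, where 2 arrays at 20 min and 1 at 30 min lie, the differences were -2.10 for CAT8, -1.59 for SIP4 and -0.66 for ADR1. From 20 to 60 min in YSS89 4 of the 10 fell, CAT8, SIP4, ADR1 and HAP4, beside 11.4% of all genes. From 30 to 60 min in YSS37 2 of the 10 fell, CAT8 (-1.80 ± 0.19, adjusted p = 8.92e-06) and ADR1 (-0.87 ± 0.16, adjusted p = 0.00277), beside 2.26% of all genes.

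**Figure D2:**
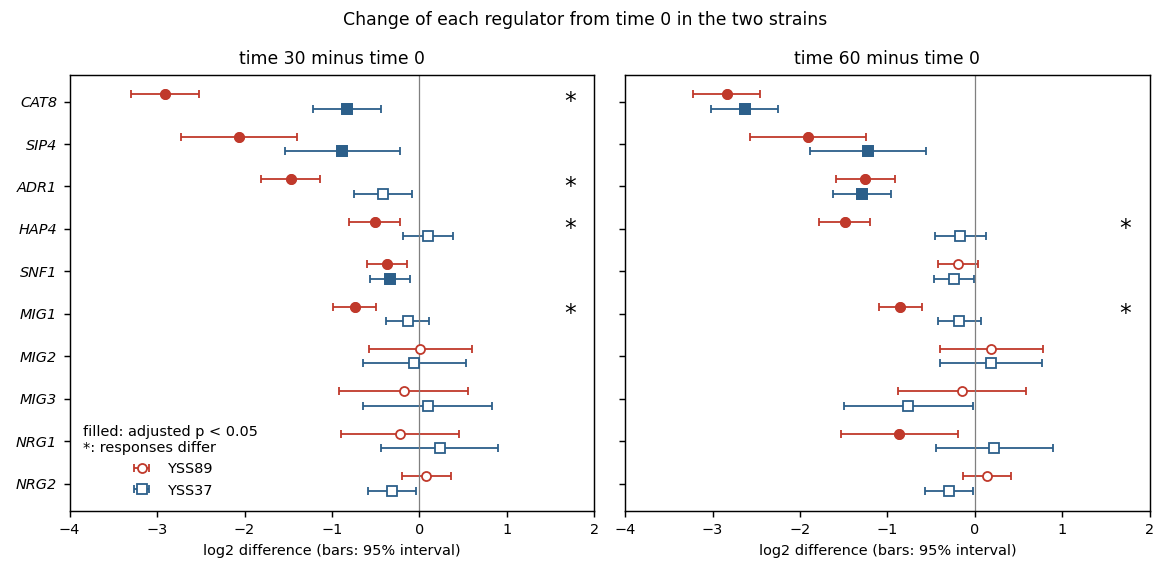
Log2 difference from time 0 with its 95% interval for each of the 10 genes, with YSS89 in red circles and YSS37 in blue squares; filled symbols have an adjusted p under 0.05 and stars mark responses that differ between the strains. At 30 min the YSS89 values of CAT8 (-2.91) and ADR1 (-1.47) lie left of the YSS37 values (-0.83 and -0.42), and at 60 min those of HAP4 (-1.49 against -0.17) and MIG1 (-0.85 against -0.18) do.

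HAP4 encodes the activating subunit of the Hap2/3/4/5 complex, and its message is known to be repressed by glucose. Its signal in YSS89 was 407.0, 381.3 and 363.4 at time 0, 306.3, 229.4 and 299.2 at 20 min, 210.9, 236.9 and 270.9 at 30 min, and 232.7, 245.9 and 220.6 at 40 min. At 60 min it was 146.9, 123.6 and 127.9, lower than on any other array of the series. In YSS37 it was 299.7, 270.8 and 325.0 at time 0, 287.9, 305.6 and 318.1 at 30 min, and 231.3, 219.2 and 306.3 at 60 min. The 3 YSS37 groups overlap one another, and the strains do not overlap at time 0 or at 60 min.

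The responses of HAP4 differed between the strains at 60 min. In YSS89 the change was -0.40 ± 0.14 at 20 min, not called (adjusted p = 0.0514), and HAP4 fell by 0.51 at 30 min (± 0.14, adjusted p = 0.00526), by 0.60 at 40 min and by 1.49 at 60 min (± 0.14, 2.81-fold, adjusted p = 5.78e-08). At 40 min 40.4% of the log2 change at 60 min had been reached, against 101% for CAT8. In YSS37 HAP4 was not called at 30 min (0.10, adjusted p = 0.655) or at 60 min (-0.17, 95% interval -0.46 to 0.12, adjusted p = 0.353). The response in YSS89 was lower by -1.32 ± 0.20 at 60 min (2.50-fold, adjusted p = 0.000182) and by -0.61 ± 0.20 at 30 min (adjusted p = 0.0371).

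Compared directly, HAP4 was lower in YSS89 at 60 min by -0.92 ± 0.14 (1.89-fold, adjusted p = 0.000107). The difference was -1.26 with the round as a block (adjusted p = 0.000542) and -1.07 between the single arrays of the second round. Both of these values rest on the 1 YSS37 array of that round. HAP4 read 306.3 on it, against 231.3 and 219.2 on the other YSS37 arrays at 60 min. At time 0 HAP4 was the 1 member higher in YSS89, by 0.41 ± 0.14 (1.33-fold, adjusted p = 0.0341), beside 17.8% of all genes. That call was lost under 9 alternatives, including leaving out replicate 1 or 2 of YSS37 (0.42 and 0.34) or any 1 YSS89 array (0.36 to 0.43), and the value was 0.04 with the round as a block and -0.003 under median centring, which shifts the median of all genes in this comparison by -0.20. The difference of responses at 30 min lost its call under 12 of 25 alternatives, with values of -0.74 to -0.42 over all 25; without the fourth round it was -0.71 (adjusted p = 0.0845). The difference at 60 min kept its call under all 25, at -1.42 to -0.99.

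SNF1 encodes the catalytic subunit of the kinase, the yeast relative of the mammalian AMP-activated protein kinase, whose activity is set by phosphorylation and is not read here. Its signal in YSS89 ran from 103.2 to 116.7 at time 0 and from 69.7 to 103.6 at the later times. In YSS37 it ran from 119.9 to 134.7 at time 0 and from 86.8 to 105.6 later. All later YSS37 arrays lie below those at time 0, and in YSS89 1 array at 40 min reaches the time 0 range. SNF1 fell at 30 min, by 0.37 in YSS89 (± 0.11, adjusted p = 0.00921) and by 0.34 in YSS37 (± 0.11, adjusted p = 0.025), and was not called at 60 min in YSS89 (-0.19, adjusted p = 0.17) or YSS37 (-0.24, adjusted p = 0.0837). The difference between these responses was -0.03 at 30 min, with a 95% interval of -0.35 to 0.29.

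The calls of SNF1 were easily lost. That of YSS89 at 30 min ended without replicate 3 at 30 min (-0.30) and with the round as a block (-0.41). That of YSS37 ended without replicate 2 at time 0 (-0.29) or replicate 2 or 3 at 30 min (-0.32 and -0.35).

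MIG1 encodes the main DNA-binding repressor of the glucose response. Its signal in YSS89 was 63.2, 69.9 and 66.9 at time 0, 35.5, 42.2 and 43.8 at 20 min, and 37.9, 32.7 and 35.5 at 30 min. It was 41.6, 46.6 and 37.3 at 40 min and 31.8, 34.0 and 36.4 at 60 min. In YSS89 every later array lies below those at time 0. In YSS37 it was 56.2, 56.5 and 53.9 at time 0, 55.4, 55.3 and 46.7 at 30 min, and 48.1, 58.1 and 48.2 at 60 min, all higher than any YSS89 array after time 0.

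MIG1 fell in YSS89 by 0.55 at 20 min (± 0.12, adjusted p = 0.0034), by 0.74 at 30 min (± 0.12, adjusted p = 4.56e-05), by 0.55 at 40 min and by 0.85 at 60 min (± 0.12, 1.81-fold, adjusted p = 8.53e-06), and so 64.0% of the log2 change at 60 min was present at 20 min. The call at 20 min ended with the round as a block (-0.51, adjusted p = 0.121) and without the fourth round (-0.50). In YSS37 it was not called at 30 min (-0.13, adjusted p = 0.438) or 60 min (-0.18, 95% interval -0.42 to 0.07, adjusted p = 0.242). The responses differed at 30 min (-0.60 ± 0.17, adjusted p = 0.0166) and at 60 min (-0.68 ± 0.17, adjusted p = 0.0112). The strains were not called different at time 0 (-0.02, adjusted p = 0.914) and MIG1 was lower in YSS89 at 30 min (-0.62 ± 0.12, adjusted p = 0.000299) and 60 min (-0.70 ± 0.12, adjusted p = 0.000288).

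Both differences of responses of MIG1 kept their size but not their call with the round as a block (-0.57 and -0.67, adjusted p = 0.144 and 0.128) and without the fourth round (-0.56 and -0.63, adjusted p = 0.11 and 0.0923). In the second round alone MIG1 in YSS89 differed from its array at time 0 by -0.55 after 20 min, then by -0.59 (30 min), -0.49 (40 min) and -0.87 (60 min), and the direct difference of the strains at 60 min was -0.71.

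Between the strains as sampled, 5 of the 10 were lower in YSS89 at 30 min, CAT8, ADR1, MIG1, MIG3 and SNF1, beside 20% of all genes. The value of SNF1 was -0.29 ± 0.11 (adjusted p = 0.0389), and it lost its call without any 1 YSS37 array or replicate 2 or 3 of YSS89 at 30 min and with the round as a block, where that of MIG1 ended too (-0.56, adjusted p = 0.134). At 60 min 4 were lower, HAP4, MIG1, NRG1 and CAT8, beside 11.4% of all genes. The responses differed for 4 of the 10 at 30 min, CAT8, ADR1, HAP4 and MIG1, all lower in YSS89, beside 11% of all genes. At 60 min they differed for 2 of the 10, HAP4 and MIG1, both lower in YSS89, beside 8.42% of all genes.

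MIG2 and MIG3 encode zinc finger repressors related to Mig1. MIG2 read 3.1 to 13.6 in YSS89 and 3.3 to 11.2 in YSS37, and no comparison called it. MIG3 read 0.3 to 1.0 in YSS89 and 0.3 to 6.2 in YSS37, at or below the pseudocount of 1.4 on 21 of 24 arrays. The files used here give no detection calls, and the mouse controls read 0.1 to 5.4 on the same arrays. MIG3 was called lower in YSS89 at 30 min (-0.89 ± 0.35, adjusted p = 0.0476), from signals of 0.3 to 0.4 in YSS89 and 2.7, 3.0 and 0.5 in YSS37. All of these lie in the range of the mouse controls, so this call gives no fold of the message. It lost the call under 10 alternatives, among them leaving out replicate 1 or 2 of YSS37 (-0.67 and -0.77) or any 1 YSS89 array at 30 min.

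NRG1 encodes a zinc finger repressor of glucose-repressed genes. Its signal in YSS89 was 31.7, 16.4 and 14.0 at time 0 and 12.1, 8.2 and 12.0 at 20 min. It was 14.8, 17.6 and 13.0 at 30 min, 21.1, 23.3 and 24.0 at 40 min, and 11.2, 5.5 and 11.7 at 60 min. The course in YSS89 is not steady, with lower arrays at 20 and 60 min on either side of higher ones at 40 min. In YSS37 it was 24.8, 19.8 and 12.5 at time 0, 37.2, 21.4 and 17.7 at 30 min, and 21.8, 37.8 and 17.4 at 60 min, and these groups overlap.

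NRG1 fell in YSS89 at 60 min by 0.87 (± 0.32, adjusted p = 0.0348), with no call at 20 min (-0.60, adjusted p = 0.209), 30 min (-0.22, adjusted p = 0.598) or 40 min (0.31, adjusted p = 0.461). The call ended without replicate 1 at time 0 (-0.52), without replicate 2 at 60 min (-0.59) and with only these groups in the fit (adjusted p = 0.0695), while the value was -1.56 with the round as a block and -1.55 without the fourth round. In YSS37 it was at 0.23 at 30 min and 0.22 at 60 min, neither called (adjusted p = 0.646 and 0.618). It was lower in YSS89 than in YSS37 at 60 min (-1.33 ± 0.32, 2.52-fold, adjusted p = 0.00484), and the difference of responses there was not called (-1.09, 95% interval -2.04 to -0.14, adjusted p = 0.117). That difference was -1.38 and called with the values as deposited (adjusted p = 0.0495), and -1.99 with the round as a block (adjusted p = 0.0517). The direct difference was -0.93 with the round as a block, without a call, and -0.70 between the single arrays of the second round.

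NRG2, the related repressor gene, read 46.3 to 71.7 in YSS89 and 35.0 to 55.1 in YSS37. It was higher in YSS89 at 40 min than at time 0, by 0.36 ± 0.13 (1.28-fold, adjusted p = 0.0341), with signals of 71.7, 58.5 and 68.6 against 60.6, 50.9 and 53.7. That call ended under 9 alternatives, among them the round as a block (0.24) and leaving out replicate 1 or 3 at 40 min or replicate 2 or 3 at time 0 (0.29 to 0.35). No other comparison called NRG2.

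Ordered by the mean of each group, few neighbouring groups are apart on all arrays of the normalized values. For CAT8 the order from the top was YSS37 at 0, YSS89 at 0, YSS89 at 20, YSS37 at 30, YSS37 at 60, and then YSS89 at 60, 40 and 30. In that order YSS89 at 0 lies wholly above YSS89 at 20, YSS37 at 30 above YSS37 at 60, and YSS37 at 60 above YSS89 at 60, and the other neighbours overlap. For ADR1 the first 4 and the last 4 groups are the same sets as for CAT8 with YSS89 at 20 last among the upper 4, and only the step from there to YSS37 at 60 is free of overlap. For HAP4 YSS89 at 0 stands above all other groups and YSS89 at 60 below all others, with the 6 between them overlapping in order. For MIG1 the 3 YSS37 groups and YSS89 at 0 lie above the 4 later YSS89 groups. For SIP4, MIG2, MIG3 and NRG2 every pair of neighbours overlaps.

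The genes these activators are known to act on were read from lists written out of general knowledge. The lists were chosen with earlier results of these data known, so their counts are descriptions and not independent of the data. Most of the 9 listed Cat8 and Sip4 target genes belong to gluconeogenesis, the glyoxylate cycle or the uptake and activation of their substrates. Of the 9, 9 fell by 60 min in YSS89 (median -4.53) and 9 in YSS37 (median -3.16), where 19.8% and 20.5% of all genes fell. FBP1, for fructose-1,6-bisphosphatase, fell by 7.34 in YSS89 (adjusted p = 9.06e-11) and by 5.11 in YSS37 (adjusted p = 3.80e-08). MLS1, for malate synthase, fell by 6.50 and 3.71 in these strains, and JEN1, for the lactate permease, by 6.11 and 3.66. At 20 min in YSS89 6 of the 9 had fallen (median -1.15), and at 30 min 9 (median -3.34), against 4 in YSS37 at 30 min (median -0.80). The 6 at 20 min became 0 with the round as a block and without the fourth round. Medians over all genes in these comparisons lay between -0.01 and 0.08.

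The difference of responses was lower in YSS89 for 9 of these 9 targets at 30 min (median -2.49, all genes -0.03) and for 7 at 60 min (median -1.92, all genes 0.03), beside the 11% and 8.42% of all genes given above. With the round as a block these counts were 5 and 3, with medians of -2.03 and -1.71, and without the fourth round they were 6 and 2. Median centring gave 8 and 4, and only the groups compared gave 8 and 3. At 60 min MLS1 differed by -2.80 (adjusted p = 0.00522), PCK1, for phosphoenolpyruvate carboxykinase, by -2.49 (adjusted p = 0.0103), JEN1 by -2.46 (adjusted p = 0.00107) and IDP2, for cytosolic isocitrate dehydrogenase, by -1.92 (adjusted p = 9.65e-05). MLS1 lost its call with the round as a block (-2.06, adjusted p = 0.1), and MLS1 and PCK1 lost theirs without the fourth round (-2.45 and -2.23). CAT8 and SIP4 themselves were not called different in this comparison, as given above. ACS1 (-0.70) and SFC1 (-0.94) were the 2 targets not called. At time 0, 4 of the 9 were higher in YSS89 (median 0.66, all genes 0.04), where neither CAT8 nor SIP4 was called. None of the 4 kept a call with the round as a block, without the fourth round, with median centring or with values as deposited.

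Of 8 Adr1 target genes 8 fell by 60 min in YSS89 (median -2.75) and 8 in YSS37 (median -2.67), beside the same shares of all genes. ADH2, for the alcohol dehydrogenase that oxidizes ethanol, changed by -5.82 in YSS89 (adjusted p = 7.01e-15) and by -1.84 in YSS37 (adjusted p = 4.67e-07), and GUT1, for glycerol kinase, by -3.60 in YSS89 and -3.01 in YSS37. At 30 min 8 had fallen in YSS89 (median -2.40) and 7 in YSS37 (median -1.04). The responses differed for 4 of the 8 at 30 min, all lower in YSS89, with GUT1 at -2.53 (adjusted p = 8.23e-06) and ADH2 at -1.95 (adjusted p = 8.97e-05). At 60 min they differed for 2, ADH2 (-3.98, adjusted p = 1.72e-08) and ALD4, for mitochondrial aldehyde dehydrogenase (-1.25, adjusted p = 0.00746), while the median of the list was -0.04. With the round as a block, and likewise without the fourth round, the counts were 3 at 30 min and 1 at 60 min, and ALD4 was -1.31 (adjusted p = 0.0654) and -1.21 (adjusted p = 0.0645). The peroxisomal genes POX1, POT1, FOX2 and CTA1 were at -0.15 to 0.49 there, none called. Levels of 3 targets were called below those of YSS37 at time 0 (list median -0.60), and levels of 5 at 60 min (-0.82). With the round as a block the 3 calls at time 0 were lost (median -0.68). POT1 had normalized log2 means of 6.32 in YSS89 against 7.68 in YSS37 at time 0, and 3.72 against 5.01 at 60 min. POX1 in YSS89 at 60 min (2.50) lay below MIG2 (3.14), a gene near the mouse controls, so the fall of POX1 may be understated.

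**Figure D3:**
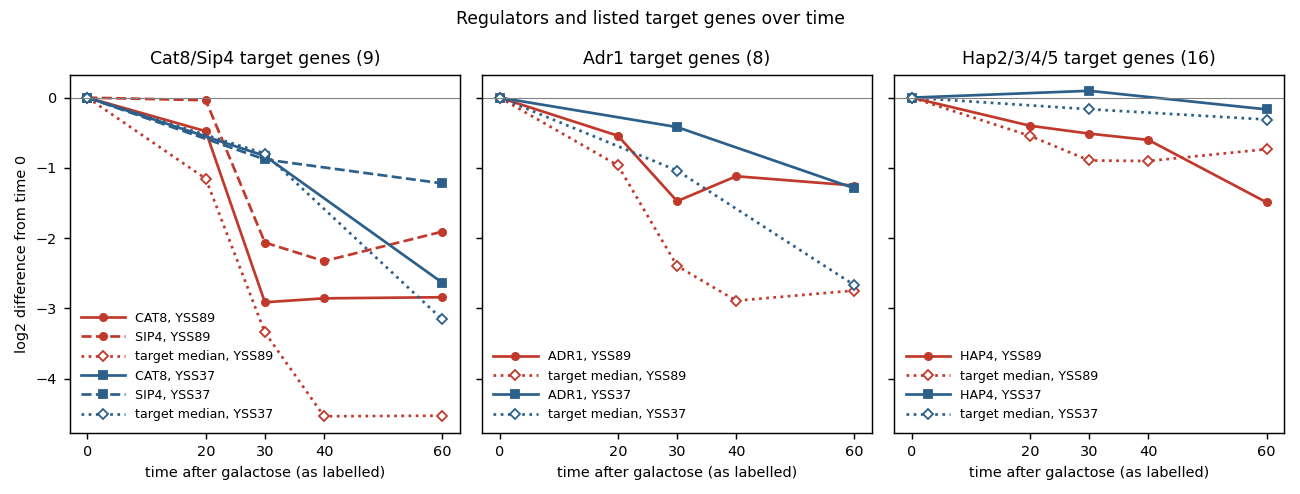
Log2 difference from time 0 against the labelled time (minutes assumed), for the Cat8 and Sip4, the Adr1 and the Hap2/3/4/5 target genes from left to right; red is YSS89 and blue YSS37, filled symbols on solid or dashed lines are the activators, and open diamonds on dotted lines are medians over the listed targets, without error bars. In YSS89 CAT8, SIP4 and both target medians drop most between 20 and 30 min, in YSS37 CAT8, ADR1 and those medians drop most between 30 and 60 min, and HAP4 in YSS89 ends below the median of its targets (-1.49 against -0.73).

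Of 16 target genes of the Hap2/3/4/5 complex, for cytochrome c, respiratory chain subunits and the alpha-ketoglutarate and succinate dehydrogenases, 16 fell by 60 min in YSS89 (median -0.73) and 10 in YSS37 (median -0.31), where 19.8% and 20.5% of all genes fell. The 16 became 10 with the round as a block or without the fourth round and 9 with median centring, and the 10 became 5 with only the groups compared. All 16 had fallen in YSS89 at 30 and at 40 min (medians -0.89 and -0.90), and 1, KGD1, in YSS37 at 30 min. KGD1, for alpha-ketoglutarate dehydrogenase, fell by 1.23 in YSS89 (adjusted p = 4.03e-08) and by 1.21 in YSS37 (adjusted p = 8.85e-08) at 60 min, although HAP4 was not called in YSS37. SDH2, for a succinate dehydrogenase subunit, fell by 1.54 and 0.60 in these strains. The responses differed for 12 of the 16 at 30 min (median -0.76) and for 5 at 60 min (median -0.49), all lower in YSS89, with SDH2 at -1.14 (adjusted p = 2.07e-05) and -0.94 (adjusted p = 0.00017). These counts were 5 and 3 with the round as a block, 7 and 3 without the fourth round, and 5 and 1 with median centring, where the median at 60 min was 0.01. The medians of the targets did not go on falling between 30 and 60 min in YSS89, whereas HAP4 stood at -0.51 and -1.49.

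The partners of Hap4 were read beside it. HAP5 fell by 0.95 in both strains at 60 min (adjusted p = 2.12e-05 in YSS89 and 2.00e-05 in YSS37), and HAP2 by 0.67 in YSS89 and 0.73 in YSS37, while HAP3 was not called in either (-0.24 and 0.17). These 3 genes encode the DNA-binding part of the complex. None of them had responses called different between the strains at 30 or 60 min. Compared directly, HAP5 and HAP2 were already lower in YSS89 at time 0 (-0.51 and -0.46). They were also lower there at 30 min (-0.59 and -0.46) and 60 min (-0.51 and -0.40). Of the corepressor genes, TUP1 rose by 0.76 in YSS89 (adjusted p = 0.000235) and by 0.40 in YSS37 (adjusted p = 0.0275, lost without any of 4 single arrays and with median centring), and CYC8 was not called (0.11 and 0.09).

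The 6 listed Mig1 target genes moved in both directions. At 60 min HXK1, for a hexokinase, fell by 2.23 in YSS89 and 2.62 in YSS37, and GAL4, for the galactose activator, by 1.14 and 0.87. HXK1 had normalized log2 means of 8.17 in YSS89 against 10.23 in YSS37 at time 0, and 5.94 against 7.61 at 60 min. SUC2, for invertase, rose by 0.66 in YSS89 (adjusted p = 0.00117) and fell by 0.76 in YSS37 (adjusted p = 0.000348), and its responses differed by 1.42 ± 0.21 (adjusted p = 0.000161). The rise in YSS89 lost its call with the round as a block (0.32) and without the fourth round (0.39). The normalized log2 means of SUC2 were 4.47 in YSS89 against 5.65 in YSS37 at time 0, and 5.14 against 4.90 at 60 min. Between these times its course in YSS89 was not steady, with means of 5.27, 4.03 and 4.02 at 20, 30 and 40 min. MTH1, for a corepressor of hexose transporter genes, was at 0.01 in YSS89 and rose by 1.23 in YSS37. The difference of -1.22 (adjusted p = 0.0214) lost its call with the round as a block (-0.72) and without the fourth round (-0.70). MTH1 was already higher in YSS89 at time 0, by 1.11 (adjusted p = 0.00152). Its normalized log2 means in YSS89 were 6.79 at time 0, then 7.75, 7.69, 7.40 and 6.80 at 20, 30, 40 and 60 min. YSS37 stood at 6.91 at 60 min. The hexose transporter genes HXT2 and HXT4 were not called in either strain at that time. Over the list 1 gene rose and 2 fell in YSS89, and 1 rose and 3 fell in YSS37, beside the shares of all genes at 60 min given above (23.9% higher and 19.8% lower in YSS89, 21.1% and 20.5% in YSS37).

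Among 11 genes that form or control the Snf1 kinase, 1 rose and 2 fell by 60 min in YSS89 and 1 rose and 4 fell in YSS37. Of all genes 23.9% rose and 19.8% fell in YSS89, and 21.1% rose and 20.5% fell in YSS37. With the round as a block none of the 11 rose in YSS89 and 2 fell in YSS37. REG2, for a regulatory subunit of the Glc7 phosphatase, changed by -3.72 in YSS89 (adjusted p = 2.23e-09) and by -3.04 in YSS37 (adjusted p = 7.15e-08). SIP2, for a beta subunit of the kinase, changed by -2.13 in YSS89 and -1.37 in YSS37 (adjusted p = 6.08e-08 and 1.68e-05). At 30 min the responses differed for 3 of the 11, all lower in YSS89, beside 11% of all genes. These were REG2 (-1.60, adjusted p = 0.00774), HXK2 (-1.07, adjusted p = 0.00714) and SIP2 (-0.84, adjusted p = 0.044). GAL83, for another beta subunit, had fallen in YSS89 at 30 min (-0.77, adjusted p = 0.000277) and fell by 0.53 in YSS37 at 60 min. The call in YSS37 was lost with the round as a block (-0.43) and with only the groups compared. GAL83 was lower in YSS89 than in YSS37 at time 0 (-0.50, adjusted p = 0.015). ELM1, for an activating kinase, rose in YSS37 at 60 min (0.67, adjusted p = 0.00115) and its responses differed then (-0.65, adjusted p = 0.0418). That last call was lost under 14 of 24 alternatives, among them the round as a block (-0.59). ELM1 was higher in YSS89 at time 0 (0.59, adjusted p = 0.00497). At 30 min it rose in YSS89 (0.48, adjusted p = 0.0128) and YSS37 (0.47, adjusted p = 0.022). Its normalized log2 means at 60 min were 4.68 in YSS89 and 4.74 in YSS37.

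Of 14 other regulators of carbon use 1 rose and 6 fell by 60 min in YSS89, and 2 rose and 5 fell in YSS37, beside the same shares of all genes. MTH1 is in this list as well as among the Mig1 targets, and is 1 of the 2 that rose in YSS37. With the round as a block 3 fell in each strain. STD1, a paralog of MTH1, rose by 1.84 in YSS89 (adjusted p = 2.47e-08) and by 1.65 in YSS37 (adjusted p = 1.85e-07). The zinc finger genes USV1 and GSM1 fell in both strains, USV1 by 1.61 in YSS89 and 1.20 in YSS37 and GSM1 by 0.88 and 0.77. MSN4, for a stress-response activator, fell in YSS89 (-0.89, adjusted p = 5.77e-05), and its responses differed at 30 min (-1.38, adjusted p = 0.00014) and 60 min (-1.17, adjusted p = 0.000871). OAF1, for an activator of oleate-induced genes, rose in YSS89 at 30 min (1.04, adjusted p = 6.61e-05), with a difference of responses of 1.08 (adjusted p = 0.00436) that lost its call with the round as a block (0.59).

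**Figure D4:**
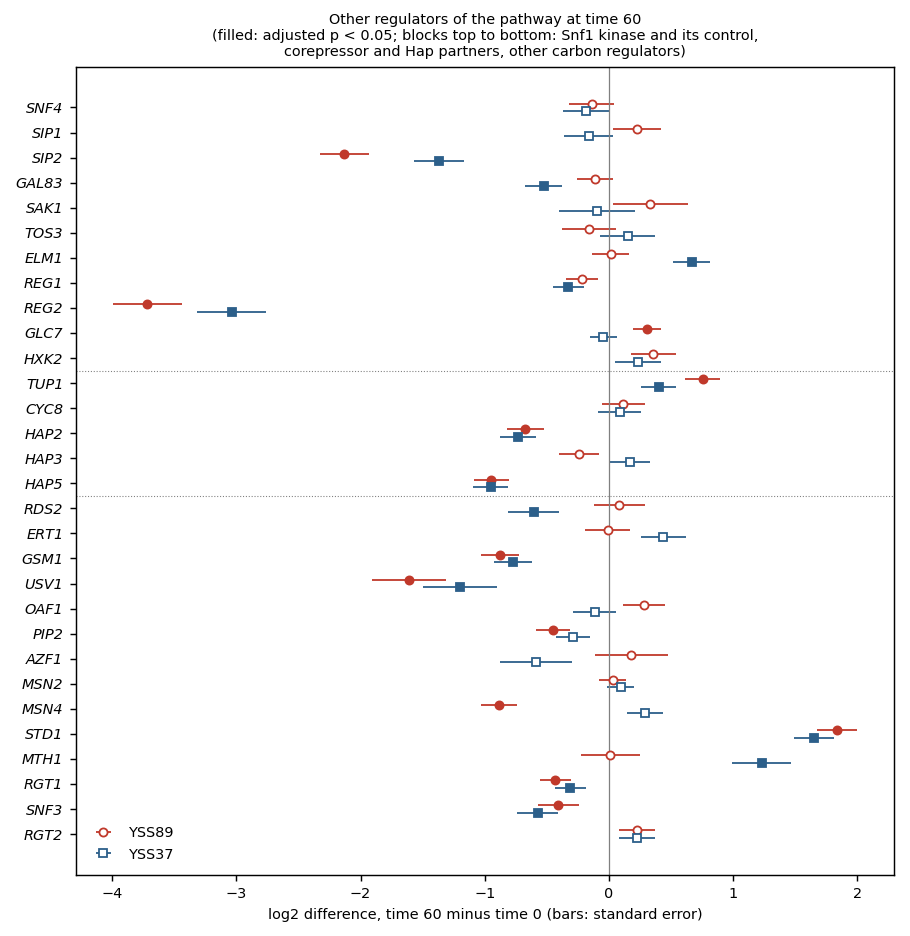
Log2 difference at 60 min from time 0 of the 30 listed kinase, corepressor, Hap partner and other regulator genes, with YSS89 in red circles and YSS37 in blue squares; bars are standard errors and filled symbols have an adjusted p under 0.05. REG2 lies furthest to the left in both strains (-3.72 and -3.04) and STD1 furthest to the right (1.84 and 1.65).

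Among the 45 pairs of members, CAT8 and ADR1 had the most similar courses, with a Pearson r of 0.972 over the 8 group means, and CAT8 and SIP4 had 0.892. MIG1 went with SNF1 at 0.838 and with ADR1 at 0.816. The most opposed pairs were MIG2 with SIP4 (-0.71) and MIG2 with CAT8 (-0.68), where MIG2 is near the level of the mouse controls. These values describe 8 means that share normalization, rounds and strains, and they carry no test.

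Likeness to other genes was read for the 5 members whose group means span at least 1 on the log2 scale, among 2121 genes that span as much. Nearest to CAT8 were ALG13 (0.988), UBP15 (0.988) and AFR1 (0.986), and nearest to ADR1 were CQD1 (0.986), CMK1 (0.986) and RIE1 (0.980). Nearest to SIP4 were UBI4, for polyubiquitin (0.976), and the carnitine shuttle genes CRC1 (0.968) and YAT1 (0.967). HAP4 was most like PST1 (0.948), ADE17 (0.939) and PIR3 (0.934), and NRG1 like ANS1 (0.902), CLN1 (0.900) and STR3 (0.894).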

How the data were processed

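For each of 24 arrays the authors deposited linear intensities, with 1 value for every probe set. The summary algorithm is not given in the sources used here. The instrument files were used for hybridization rounds and lots only, per the file headers (unit other, settings of the run).

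In R 4.3.3, 60 control probe sets were left out, a pseudocount of 1.4 (10th percentile of the table) was added, and the log2 of the deposited intensities was quantile normalized, since array medians ran from 4.72 to 5.15. Probe sets naming 1 gene (6504 of 9335) were kept, the brightest for each gene. limma 3.58.1 fitted 8 group means over 24 arrays, and p-values were adjusted with Benjamini-Hochberg over 5656 genes in each of 14 contrasts, of which the step from 20 to 30 min was added after seeing values. In simulated YSS89 data at 60 min against time 0, 86 of 100 genes changed by 1 on the log2 scale and 100 of 100 changed by 2 were called, with 12 false calls.

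Named genes were all members, up to 4 called genes at each end of each list with others of the lists, and the 3 genes most like each member. Members and lists were chosen with earlier results of these data known. Deviations of same-numbered arrays of a strain from their group means had r of -0.24 to 0.33. The median was 0.04, against -0.01 for other pairs of a strain, and the numbers were not used to pair samples in the main fit.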

Additional observations from a re-analysis of the deposited data

Results flagged for a closer look

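The responses to galactose differed between the strains, by limma over all genes, for 4 members at 30 min and 2 at 60 min, always lower in YSS89. At 30 min the difference of responses was -2.08 for CAT8, -1.06 for ADR1, -0.61 for HAP4 and -0.603 for MIG1. At 60 min it was -1.32 for HAP4 and -0.675 for MIG1. Each of these values is YSS89 minus YSS37, so the fall was larger in YSS89 in each case. The 2 strains lie mostly in different hybridization rounds, and with the round as a block CAT8 kept its call at 30 min and HAP4 at 60 min, and the other 4 calls were lost. Groups of 3 arrays were not searched for single arrays that stand apart.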

How the results depend on the processing

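The fit was repeated with the hybridization round as a block, in the second round alone and without the fourth round, with each array dropped in turn, and with a replicate block (by number, or by strain and number). It was also restricted to the groups compared. The values were taken unnormalized or median centred, a pseudocount of 1 or 6.2 was used, genes were averaged over their probe sets or every probe set was tested, the dimmest 25% of genes were dropped, and the prior was made robust with a trend. Of the values of single members 2528 kept direction and side of the threshold, 102 lost and 49 gained a call, and 1 turned: HAP4 at time 0 under median centring (-0.002723). In the second round only YSS89 at 20 min has more than 1 array. The fit took its spread from the groups of all rounds that held more than 1 array. Single arrays of the second round are assumed to vary as those do, and counts of calls there are no support. Without the fourth round YSS89 at time 0 is 1 array, assumed to vary like the other groups. Where a cause is not plain from the setting it was not tested.

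For the number of the 10 members called, strain differences at time 0 (1) gave 0 with only the groups of the contrast, the round as a block or without the fourth round, 2 as deposited and 3 with median centring. Strain differences at 30 min (5) gave 3 without the dimmest genes and 2 with the round, and those at 60 min (4) gave 2, 2 and, in the second round, 1. YSS37 at 30 min (3) gave 1 with only its groups, and at 60 min (3) gave 7 with median centring and 1 without the dimmest genes. YSS89 at 20 min (2) gave 1 with only its groups, 5 as deposited, 4 with a pseudocount of 6.2, and 0 with the round, in the second round or without the fourth round. Without the dimmest genes, which removes CAT8, SIP4, NRG1, MIG2 and MIG3, YSS89 at 60 min (6) gave 3, the step from 30 to 60 min in YSS37 (2) gave 1 and that from 20 to 30 min in YSS89 (3) gave 1, as did the second round for the last. The differences of responses at 30 min (4) and 60 min (2) gave 1 each with the round as a block and without the fourth round. Over the lists 423 of 3850 counts of genes called higher or lower moved, and of 1458 values of other named genes 48 lost and 5 gained a call.

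The replicate numbers were not used to pair samples in the main fit. Of 39 same-numbered pairs of a strain 8 had r over 0.1, and 14 of 24 arrays matched best with their own number. These values do not settle whether same-numbered arrays belong together. The replicate block by number gave 4 members called in YSS89 at 20 min, as did the block by strain and number, with CAT8 and HAP4 gained. The block by strain and number gave 5 in YSS37 at 60 min, with MIG3 (-0.76) and NRG2 (-0.30) gained. The blocks moved no other count of members by over 1.5 times.

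With 1 array left out the members called ranged from 0 to 1 (strains at time 0), 3 to 4 (30 min), 3 to 4 (60 min), 1 to 3 and 3 to 4 (YSS37 at 30 and 60 min), 1 to 2, 5 to 6, 5 to 7 and 5 to 6 (YSS89 at 20, 30, 40 and 60 min), 2 to 2 (YSS37, 30 to 60 min), 4 to 5 and 3 to 3 (YSS89, 20 to 60 and 20 to 30 min), and 3 to 6 and 2 to 2 (differences of responses at 30 and 60 min).

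Counts over all genes also moved. With the round as a block, calls between the strains fell to 31, 593 and 455 at time 0, 30 and 60 min, against 1579, 2455 and 1577, and calls in YSS89 to 274, 1618, 1694 and 1555 at 20, 30, 40 and 60 min, against 1016, 2601, 2565 and 2472. In the second round alone YSS89 gave 172, 1066, 1202 and 1157 at those times, the strains at 60 min gave 204, and the steps from 20 to 60 and 20 to 30 min gave 490 and 238, against 1413 and 1211. Without the fourth round the strains at time 0 gave 435 and YSS89 at 20 min gave 323. Responses differed for 1002 genes at 30 min and 784 at 60 min, against 426 and 208 with the round as a block, 512 and 282 without the fourth round, and 516 and 325 with only the groups compared. Restricting the groups gave 692 for the strains at time 0, 820 for YSS37 at 30 min (against 1519), 502 for YSS89 at 20 min and 44 for YSS37 from 30 to 60 min (against 164). Dropping 1 array moved 4 of these counts by over 1.5 times: YSS89 at 20 min (654 without replicate 3 at time 0, 656 without replicate 3 at 20 min), YSS37 from 30 to 60 min (87 without replicate 2 at 30 min, 102 without replicate 3 at 60 min), responses at 60 min (512 without YSS37 replicate 2 at time 0) and YSS89 from 20 to 30 min (711 without replicate 2 at 20 min, 776 without replicate 3 at 30 min).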
